A study of Mus musculus with 19 samples.

Results

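The miR-297, miR-466, miR-467 and miR-669 families were followed in mouse liver. Members were all array miRNAs whose name begins with 1 of these 4 family names, and the rule used no measured value. It gave 41 of the 696 miRNAs on the array, measured by 112 probes: 3 of miR-297, 14 of miR-466, 10 of miR-467 and 14 of miR-669. The mice were male MutaMouse (transgenic strain 40.6), aged 10 weeks, a line that carries a reporter transgene for mutations, and the control mice carried it too. Each received an oral gavage every day over 28 days, either of dibenz[a,h]anthracene (DB[a,h]A) with olive oil as the vehicle or of the vehicle by itself, and livers were collected 3 days after dosing ended. DB[a,h]A is a polycyclic aromatic hydrocarbon whose metabolites damage DNA. The control group (olive oil, 0 mg/kg/day) had 5 arrays, the low dose (6.25 mg/kg/day) 5, the middle dose (12.5 mg/kg/day) 4 and the high dose (25 mg/kg/day) 5, each with the RNA of 1 mouse. The labels ask whether liver miRNAs respond to this exposure.

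As background, most hairpins of these families lie close together in a long intron of Sfmbt2, a Polycomb-group gene that is imprinted and expressed from the paternal copy in the mouse placenta. The cluster grew by repeated duplication, so its mature miRNAs resemble each other closely, and they are best known from the placenta and from embryonic stem cells rather than from liver. A hairpin gives a mature miRNA from either of its arms, named 5p and 3p, and an asterisk (star) in these older names marks the arm that was thought to be the minor product. A miRNA recognises its targets mainly through its seed, bases 2 to 8.

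The family name did not place every member in Sfmbt2. By the hairpin name, 40 of the 41 members were matched to RefSeq genes (assembly GRCm38.p6), of which 31 had hairpins inside Sfmbt2 only, 3 had hairpins both inside and elsewhere, and 6 lay elsewhere only. The 6 outside were miR-466i-3p, miR-466j, miR-466k, miR-467f, miR-467g and miR-669n. RefSeq listed 82 hairpin genes of the 4 families, 72 of them inside Sfmbt2. The members are therefore called the 4 families here, and not the Sfmbt2 cluster.

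Mature sequences were found by exact name for 6 of the 41 members, which were the same 6 that lie outside Sfmbt2. They are shown because 4 of them were detected in liver and because they divide into CA-rich and GU-rich repeats. Each runs 5′ to 3′, with the seed in capitals, and was taken from RefSeq (GRCm38.p6).
miR-466i-3p: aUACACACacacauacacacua
miR-467f: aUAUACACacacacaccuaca
miR-467g: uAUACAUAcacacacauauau
miR-669n: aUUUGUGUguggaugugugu
miR-466j: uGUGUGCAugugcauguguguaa
miR-466k: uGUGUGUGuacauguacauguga

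In the same assembly miR-466i-3p lay at chr13:17747552-17747573 on the plus strand, miR-467f at chr11:69635419-69635439 on the minus strand and miR-467g at chr5:34732872-34732892 on the minus strand. The miR-669n sequence lay at chr3:115979905-115979924, miR-466j at chr10:60960802-60960824 and miR-466k at chr3:85467396-85467418, all on the plus strand. No 2 of the 6 shared a seed. The share of A and C bases was 86.4% in miR-466i-3p, 85.7% in miR-467f and 71.4% in miR-467g, against 10% in miR-669n, 26.1% in miR-466j and 30.4% in miR-466k. The longest run common to miR-466i-3p and miR-467f was 13 bases, auacacacacaca, although 1 carries a miR-466 name and the other a miR-467 name. Both shared a run of 11 bases with miR-467g. Probes for such sequences may each bind several family members, which was not tested, so the signal printed under a member's name is that of its probe.

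In liver, 11 of the 41 members (26.8%) were detected on at least 1 of the 19 arrays, and none was detected on all of them. Among the other 655 miRNAs, detection on 1 or more arrays was made for 232 (35.4%), and on all 19 for 137. Detection is the call of the scanner software for a miRNA on an array. The detected members were miR-466f-3p, miR-466g and miR-466i-3p, then miR-467b*, miR-467d*, miR-467e*, miR-467f and miR-467g, and miR-669f-3p, miR-669h-3p and miR-669n. All 3 members of miR-297 went undetected on all arrays. The background-subtracted intensities of the 30 undetected members had a median of 0.663 and ranged from -2.92 to 6.34.

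Detection was uneven over the arms named on the array. Of the 9 members labelled 5p, 0 were detected on any array, against 4 of 8 labelled 3p, 3 of 4 labelled with a star and 4 of 20 without an arm label. For 5 hairpin names with both products on the array, 1 product was detected and the other was detected on no array. These were miR-466f-3p without miR-466f-5p, miR-669h-3p without miR-669h-5p, and miR-467b*, miR-467d* and miR-467e* without miR-467b, miR-467d and miR-467e. The name miR-466f covers 4 RefSeq hairpins. For miR-466b and miR-466d both products were on the array and neither was detected. By position, 6 of the 31 members inside Sfmbt2 only were detected, 1 of the 3 found both inside and elsewhere (miR-466f-3p), and 4 of the 6 elsewhere only.

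Among the printed sequences, the 3 CA-rich members were all detected, while 1 of the 3 GU-rich members was, miR-669n. The motif ACACAC, searched on the mature strand alone, stood in 6 of 220 array miRNAs with a matched sequence (2.73%), and these included miR-466i-3p, miR-467f and miR-467g. The other miRNAs with it were miR-362-3p, detected on 18 arrays, miR-574-3p, detected on 19, and miR-568, detected on 0. The motif UGUGUG also stood in 6 of 220, which included miR-669n, miR-466j and miR-466k. Outside the families it stood in miR-574-5p (18 arrays), miR-1187 (8 arrays) and miR-291a-3p (0 arrays). Of the 214 matched miRNAs outside the families, 43 were detected on at least 1 array. These are descriptions of few and related sequences.

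The number of arrays on which a member was detected ranged from 3 to 18 among the 11. The most often detected was miR-466f-3p, on 18 of 19 arrays, missing on 1 high dose array. Next came miR-466g and miR-466i-3p on 14 each, miR-467f on 13 and miR-669n on 10. The remaining members were seen on fewer arrays: miR-669f-3p on 7, miR-467b* and miR-467d* on 6 each, miR-669h-3p on 4, and miR-467e* and miR-467g on 3 each. All were dim. Their intensities over all arrays lay between 1.38 and 15.6, where the 75th percentile of the reliably detected probes of an array was 139 to 491.

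**Figure D1:**
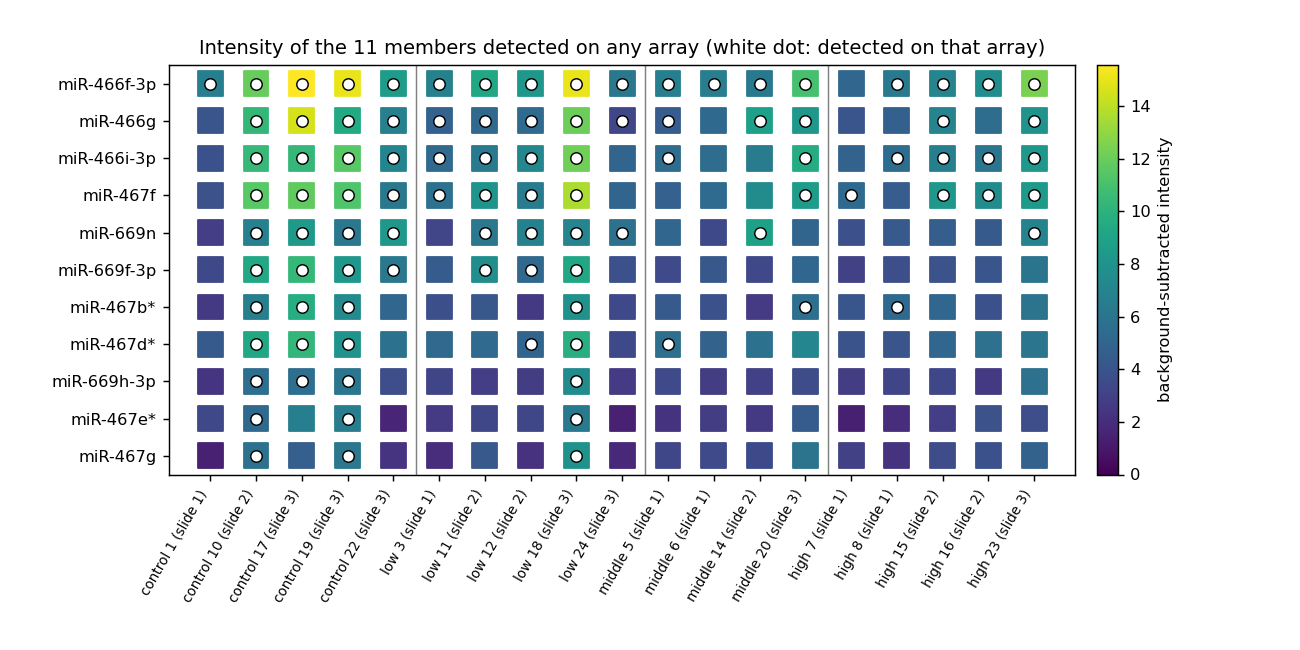
Background-subtracted intensity (colour) of the 11 detected members (rows) on each of the 19 arrays (columns, by group, replicate number and slide), with a white dot where the scanner software detected the member. Detection runs across nearly all members on control 10, control 17, control 19 and low 18, and miR-669f-3p has no dot at the middle and high doses.

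On average, arrays of the middle and high groups detected fewer members than control arrays, and the groups overlapped. Control arrays detected 7.6 ± 4.22 members (SD, n = 5), low dose arrays 6.2 ± 3.11 (SD, n = 5), middle dose arrays 3.25 ± 1.71 (SD, n = 4) and high dose arrays 3.2 ± 1.48 (SD, n = 5). The control arrays 1, 10, 17, 19 and 22 detected 1, 11, 9, 11 and 6 members, and the low dose arrays 3, 11, 12, 18 and 24 detected 4, 6, 7, 11 and 3. The middle dose arrays 5, 6, 14 and 20 detected 4, 1, 3 and 5, and the high dose arrays 7, 8, 15, 16 and 23 detected 1, 3, 4, 3 and 5. Control 1 was as low as the lowest treated arrays, and low 18 was as high as the highest controls. No test was made of this count, since it is a sum over chosen members.

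The same held for other miRNAs detected on only some arrays, a set chosen by detection and not by brightness. It included miR-1, detected on 6 arrays, with intensities up to 1216. Of 95 miRNAs outside the families that were detected on 1 to 18 arrays, control arrays detected 58.9% ± 8.78 (SD, n = 5), low dose arrays 54.1% ± 14.2, middle dose arrays 30.8% ± 10.8 (SD, n = 4) and high dose arrays 31.2% ± 14.0 (SD, n = 5). For the 11 members these shares were 69.1% ± 38.4, 56.4% ± 28.3, 29.5% ± 15.5 and 29.1% ± 13.5. The signal of the whole array moved with the groups as well. Its 75th percentile was 357 ± 111 in controls, 301 ± 74.6 in the low group, 215 ± 60.7 in the middle group and 195 ± 37.4 in the high group. Its part in the detection of the members was not tested.

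**Figure D2:**
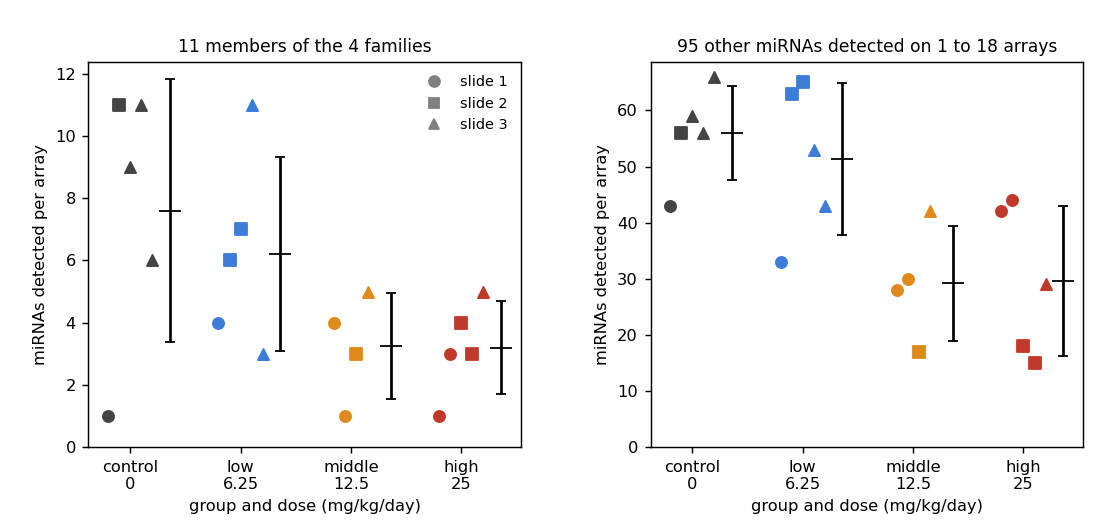
Number of miRNAs detected per array (y axis) by group and dose in mg/kg/day (x axis), for the 11 members (left) and for 95 other miRNAs detected on 1 to 18 arrays (right). Each point is 1 array, its shape the slide, and the bar beside each group gives the mean and SD. In both panels the mean is lower in the middle and high groups with overlapping points, and control 1 lies lowest of the controls in both.

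The slide also went with detection. Arrays of slide 1 detected 2.33 members on average, those of slide 2 detected 5.67 and those of slide 3 detected 7.14. Each slide held all 4 groups, in unequal numbers. On slide 1 the single control detected 1 member, below the low dose array with 4, the 2 middle dose arrays with a mean of 2.5 and the 2 high dose arrays with a mean of 2. On slide 2 the single control detected 11, against means of 6.5 on 2 low dose arrays and 3.5 on 2 high dose arrays. The 1 middle dose array there detected 3. On slide 3 the 3 controls had a mean of 8.67, against a mean of 7 on 2 low dose arrays. The 1 middle dose array and the 1 high dose array there detected 5 each. The order of control above the 3 doses thus held on slides 2 and 3 and not on slide 1. With control 1 left out, the control mean was 9.25.

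The 5 members seen on 10 or more arrays are described first, by intensity before any scaling between arrays. The intensity of miR-466f-3p was 6.62, 12.0, 15.6, 15.0 and 8.52 on the control arrays 1, 10, 17, 19 and 22. On the low dose arrays 3, 11, 12, 18 and 24 it was 6.76, 9.28, 8.30, 15.1 and 6.20. It was 6.62, 6.55, 6.31 and 11.0 on the middle dose arrays 5, 6, 14 and 20, and 5.13, 6.33, 7.05, 7.57 and 12.4 on the high dose arrays 7, 8, 15, 16 and 23. High values occurred in every group, with control 17, low 18 and control 19 at the top, and each dose group overlapped the controls. The group mean was 11.5 ± 3.93 (SD, n = 5) in controls, 9.12 ± 3.54 (SD, n = 5) in the low group, 7.61 ± 2.24 (SD, n = 4) in the middle group and 7.70 ± 2.79 (SD, n = 5) in the high group.

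The miR-467f intensity was 3.94, 11.5, 11.7, 11.2 and 6.25 on the control arrays, and 5.89, 8.06, 6.43, 13.7 and 5.01 on the low dose arrays, in the same order of arrays. It was 4.75, 5.40, 7.53 and 8.56 in the middle group and 5.26, 4.50, 8.26, 7.53 and 8.34 in the high group. Control 1 was the lowest array of all, and the other controls lay within or above the high dose range. Detection of miR-467f was made on 4 of 5 controls, on 4 of 5 arrays of the low group, on 1 of 4 of the middle group and on 4 of 5 of the high group.

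For miR-669n, the GU-rich member, intensities were 2.83, 6.74, 8.35, 6.15 and 8.30 on the control arrays and 3.23, 6.14, 6.78, 6.99 and 5.74 on the low dose arrays. They were 5.16, 3.43, 8.88 and 5.00 in the middle group, and 3.77, 4.26, 4.57, 4.35 and 6.94 in the high group. It was detected on 4 controls, on 4 arrays of the low group and on 1 each of the middle and high groups. Its highest value was on middle 14, an array on which miR-467f was not detected.

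Both remaining members of this set overlapped the controls at every dose. The miR-466g intensity averaged 9.01 ± 3.94 (SD, n = 5) in controls, 6.12 ± 3.41 in the low group, 6.72 ± 2.14 (SD, n = 4) in the middle group and 5.84 ± 1.65 (SD, n = 5) in the high group. For miR-466i-3p the means were 8.65 ± 3.15, 7.21 ± 2.90, 6.75 ± 1.95 and 6.28 ± 1.32 in the same order.

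The members seen on fewer arrays were detected mostly among control and low dose arrays. The clearest case was miR-669f-3p, detected on 4 of 5 control and 3 of 5 low dose arrays and on 0 of 4 middle and 0 of 5 high dose arrays. Its intensity was 3.43, 9.30, 10.3, 8.25 and 6.17 on the control arrays and 4.46, 7.60, 5.18, 9.28 and 3.80 on the low dose arrays. It was 3.49, 4.20, 3.38 and 5.05 in the middle group and 2.98, 3.74, 3.92, 4.19 and 5.98 in the high group. Apart from control 1, every control exceeded every middle and high dose array, and with control 1 the groups overlapped.

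The other members of this kind had lower signals. The miR-467d* intensity averaged 7.54 ± 2.42 in controls and 4.98 ± 0.95 in the high group (SD, n = 5 each), and it was detected on 3 controls, on 2 arrays of the low group, on 1 of the middle group and on 0 of the high group. For miR-467b* the means were 6.27 ± 2.64 and 4.86 ± 0.83, with 3, 1, 1 and 1 arrays. For miR-669h-3p they were 4.63 ± 1.56 and 3.52 ± 1.26, with 3, 1, 0 and 0 arrays. Both miR-467e* and miR-467g were detected on 2 control arrays and 1 low dose array only. In all 11 members each dose group overlapped the control group in intensity.

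**Figure D3:**
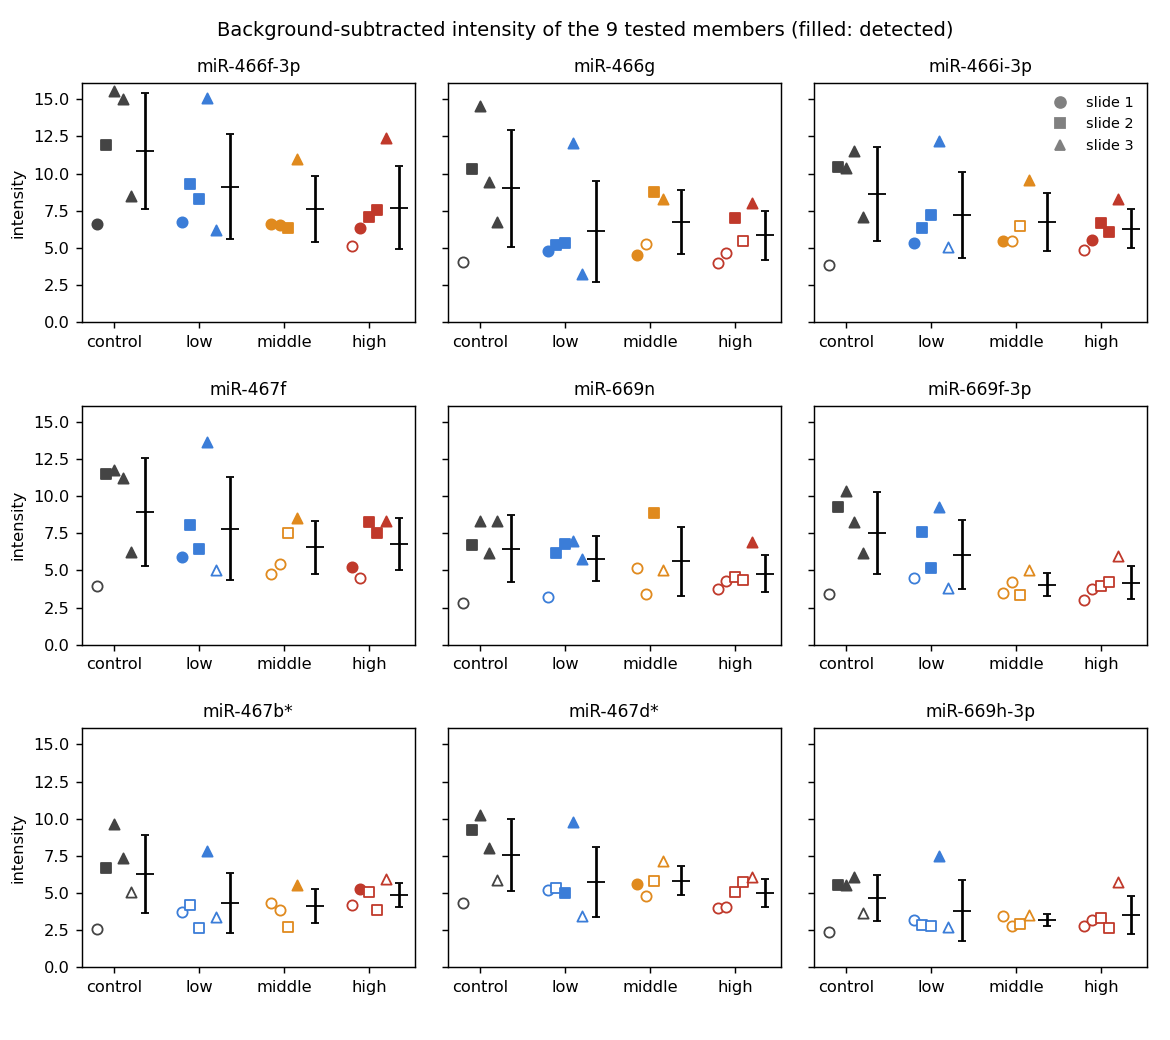
Background-subtracted intensity (y axis) of the 9 members detected on at least 4 arrays, by group (x axis). Each point is 1 array, filled where the member was detected, its shape gives the slide, and the bar gives the mean and SD. Every dose group overlaps the controls in every panel, and the control of slide 1 is the lowest control in all 9.

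The arrays on which members were brightest recurred from member to member. The 4 highest intensities of a member included low 18 for all 11 members, control 17 and control 19 for 10 each, and control 10 for 8. Other arrays appeared for at most 2 members. For the 95 other miRNAs detected on 1 to 18 arrays, control 17 was among the 4 highest for 74.7%, control 22 for 65.3%, low 18 for 49.5% and low 11 for 47.4%. Control 10 was there for 20.0% and control 19 for 16.8% of them. Control 22, which ranked high for the other miRNAs, was among the 4 highest for 1 member. The members share sequence and arrays, so this likeness is a description with no test.

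**Figure D4:**
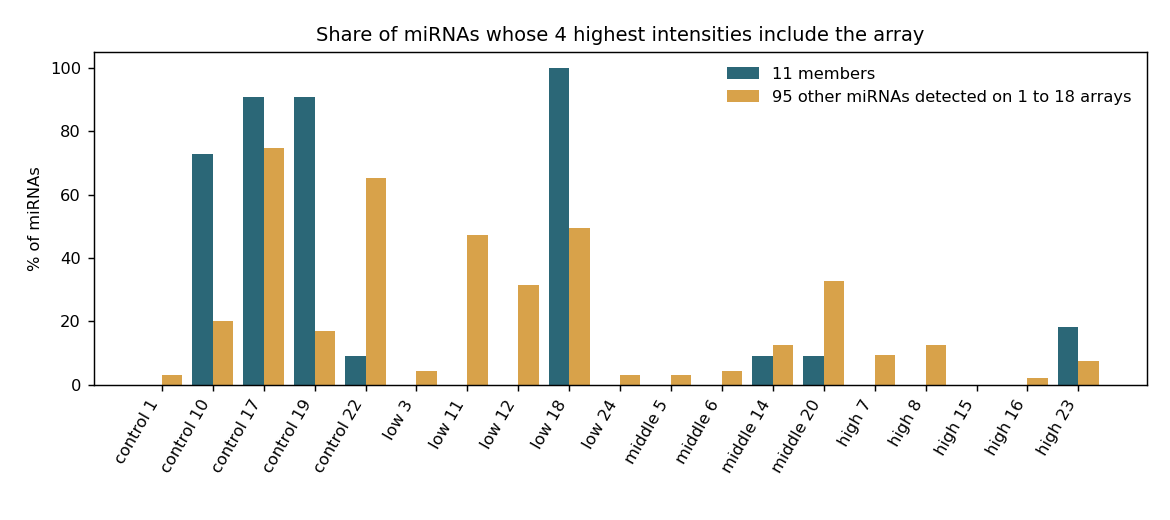
Percent of miRNAs (y axis) whose 4 highest intensities include a given array (x axis), for the 11 members and for 95 other miRNAs detected on 1 to 18 arrays. Bars for the members stand on low 18, control 17, control 19 and control 10, and bars for the other miRNAs stand highest on control 17 and control 22.

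Levels scaled between arrays were then tested. Signals were expressed relative to the 75th percentile of their array and low values were raised to a floor, a log2 level of -4.79. With limma and the slide as a block, 9 members detected on at least 4 arrays were tested among 208 miRNAs, and a miRNA was called at a Benjamini-Hochberg adjusted p under 0.05. Of the 9 members 0 were called in the low group, where 4.33% of all tested miRNAs were called, 0 in the middle group, against 5.77%, and 0 in the high group, against 2.4%. The F test over the 4 groups and the linear trend over dose each called 0 members, where 0.962% of all tested miRNAs were called in each. At an unadjusted p under 0.05, limma gave 0, 0, 1, 0 and 2 members in these 5 tests. The share of all tested miRNAs at that threshold was not counted, so these member counts are not read as a result. By contrast miR-34a, a target of p53, rose on the same arrays by 1.52 ± 0.29 (SE, log2) in the low group and 3.49 ± 0.30 in the high group, with limma adjusted p of 0.0165 and 4.88e-06.

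The smallest adjusted p among members in the high group was that of miR-467f, with a change of 0.19 on the log2 scale (95% interval 0.01 to 0.36), an unadjusted limma p of 0.0427 and an adjusted p of 0.183. The change of miR-466f-3p was 0.25 (interval -0.03 to 0.53, limma adjusted p 0.269). Over the 9 members the median change was -0.01 in the low group, 0.00 in the middle group and 0.03 in the high group, beside 0.07, 0.11 and 0.05 over all tested miRNAs. The floor limited these tests. Only 23 of the 171 values of the 9 members on 19 arrays were above it, and miR-467b*, miR-669f-3p and miR-669h-3p were at the floor on all arrays. Over 50% of the spots of the brightest probe were well above background in 25 of the 171 values. No lower bound on a fold change is given, since no bound computed from dim arrays exceeded 1-fold.

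The sign of the members' changes went with the scaling, which shifted all miRNAs of an array together. It also changed with the signal taken for each miRNA. As first scaled, 5 members were higher in the high group, 1 was lower and 3 were at the floor throughout. With the floor set 4 times lower, a setting chosen after the data were seen, all 9 members were higher in the high group, with a median change of 0.50 beside 0.14 over all tested miRNAs. Scaled by the labelling spike-ins with that floor, all 9 were again higher, with a median of 0.61 beside 0.23. Scaled over all probes with that floor, 8 were higher and 1 was lower, with a median of 0.25 beside -0.12. Without scaling and with that floor all 9 were lower, with a median of -0.19 beside -0.56. Relative to all tested miRNAs the members' median was thus 0.35, 0.37, 0.37 and 0.37 higher in these 4 settings. The 4 values are not independent of each other, since the settings differ by a shift per array, and the difference was not tested. The members were dim, while all tested miRNAs included 137 outside the families that were detected on every array. No comparison with equally dim miRNAs was made, so the difference is not read as particular to these families. In these settings limma called 0 of the 9 members in the high group, where it called 1.44, 13.9, 0.481 and 45.2% of all tested miRNAs. Not every setting gave the members a higher median. With the total signal per miRNA in place of the brightest probe, 2 members were higher and 7 lower in the high group. Their median was -0.61 beside -0.04, and all 9 were lower in the low and middle groups. There limma called 0 members and 8 of the 208 tested miRNAs in the high group. This setting had its own floor, at which many member values lay, as the last section counts. With normexp background all 9 were higher in the high group, with a median of 0.39 beside 0.32.

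The trend over dose called members in 2 of the settings with the lower floor. Under spike-in scaling 4 of 9 members were called with a rising log2 level, where 17.3% of all tested miRNAs were called rising. The rise per mg/kg/day was 0.036 for miR-467b*, 0.028 for miR-466i-3p, 0.026 for miR-669n and 0.029 for miR-467f, with limma adjusted p of 0.0237, 0.0324, 0.0324 and 0.0435. The log2 spike-in signal that levels were divided by was itself lower at the high dose, 9.77 on average against 10.67 in controls. Unscaled with that floor, the same 4 members had trends of 0.004, -0.005, -0.006 and -0.004 and were not called. The part of the spike-in signal in the rises was not tested. Without scaling 1 of 9 members was called falling, miR-669f-3p, which fell by 0.024 per mg/kg/day (limma adjusted p 0.047), where 58.7% of all tested miRNAs were called falling.

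**Figure D5:**
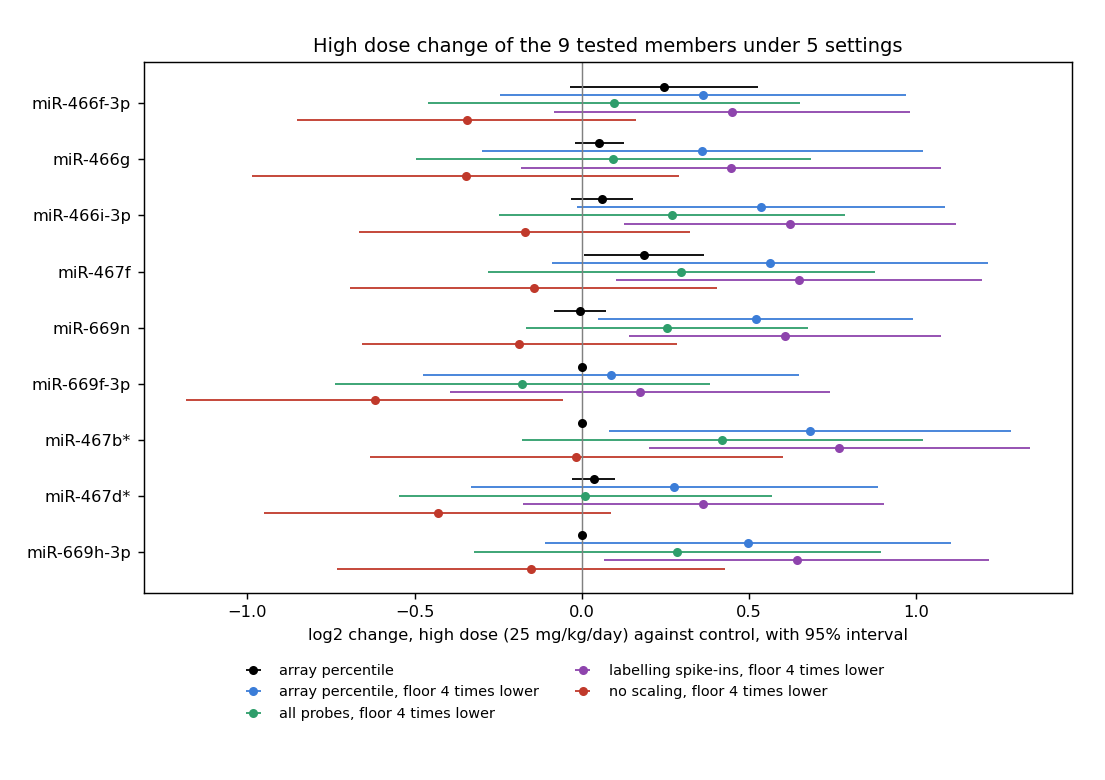
Log2 change in the high group against control (x axis) with its limma 95% interval, for the 9 tested members (rows) under 5 ways of scaling and flooring (colours). Without scaling all 9 points lie below 0, and under the array percentile and the labelling spike-ins with a floor 4 times lower all 9 lie above it.

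The tissue label was set against marker miRNAs. The 3 hepatocyte miRNAs listed, miR-122, miR-192 and miR-194, were detected on all 19 arrays. Of 23 miRNAs listed for embryonic stem cells and placenta, where the Sfmbt2 cluster is best known, 19 were detected on no array, among them all 4 listed members of the miR-302 family. Those detected were miR-290-3p, miR-291b-5p and miR-322, on all 19 arrays, and miR-294, on 1. Intensities ran only from 18.1 to 26.8 for miR-290-3p and from 16.6 to 21.4 for miR-291b-5p. The 75th percentile of the arrays ran from 139 to 491. The other products of these hairpins, miR-290-5p and miR-291b-3p, were detected on 0 arrays. Whether the 2 signals reflect these miRNAs in liver was not tested. The summed intensity of this list, unscaled between arrays, was 74.5 to 91.4 on control arrays and 69.5 to 87.7 on high dose arrays, so the groups overlapped. With 4 of the 23 detected on any array, this sum is not read as a level of stem cell or placental miRNAs. The unscaled sums of 3 other lists did not overlap between these groups. The hepatocyte sum was 27525 to 46690 on control arrays and 19365 to 24435 on high dose arrays, the erythroid sum 2275 to 4294 and 843 to 1620, and the endothelial sum 621 to 1260 and 351 to 589. The sums of the leukocyte, stellate and smooth muscle, bile duct, and pancreas or muscle lists overlapped. The share of all miRNAs without overlap between these groups was not counted. Without scaling and with a floor 4 times lower, limma called 45.2% of all tested miRNAs in the high group, in either direction. The lists without overlap are therefore not read as particular to their cell types. The log2 signal of the labelling spike-ins also differed between these groups. It averaged 10.67 ± 0.301 on control arrays and 9.77 ± 0.23 on high dose arrays (SD, n = 5 each). The 75th percentile of the array averaged 357 and 195 in the same order. The part of labelling or of array signal in the list sums was not tested. In whole liver RNA, fewer cells of a type and less RNA per cell cannot be told apart either.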

How the data were processed

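Liver RNA of 19 mice was measured on 1-colour Agilent miRNA arrays. Per the file headers, Agilent Feature Extraction 10.7.3.1 gave a background-subtracted intensity per spot, unscaled between arrays. The series' value table, deposited on a log2 scale, served as an alternative. How the authors made it is not given in the sources used. Outlier spots were left out, spots were averaged per probe, and signals were taken relative to the 75th percentile of their array over 220 probes detected on all arrays. The floor was the median over arrays of the lowest scaled signal well above background. The brightest probe stood for each miRNA. Fits used limma 3.58.1 in R 4.3.3 over all 4 groups with the slide as a fixed block, two-sided except the F test. The high dose contrast alone was tried on simulated levels, which were not floored. That trial does not cover members held at the floor or the other tests. Alternatives changed scaling, background, floor, filter, probe rule, slide block and arrays; normexp used the median spot signal, since mean signals were not used here. The labels give 5 animals per dose, and 4 middle dose arrays were analysed here. Members with values are those tested; members detected on 1 to 3 arrays are given by arrays. miR-362-3p, miR-568, miR-574-3p and miR-291a-3p were named after their values were seen, through the motif search. Members and lists were chosen with earlier results of these data known. The number of arrays limits the precision.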

Additional observations from a re-analysis of the deposited data

Results flagged for a closer look

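In 6 of 44 combinations of a member and a group, 1 array lay far from the rest of its group in intensity. Chance flags about 1 in 20 groups. The 6 cases fell on 3 arrays, all of slide 3, and members on an array are not independent. The number of members detected per array showed no such case in the 4 groups. At the middle dose, miR-466f-3p was 11.0 on array 20, where the other arrays gave 6.31 to 6.62, and miR-467g was 5.93 on the same array, against 3.28 to 3.49. At the low dose, miR-466g was 12.0 on array 18, against 3.24 to 5.32, and miR-669h-3p was 7.45 on that array, against 2.69 to 3.18. At the high dose, miR-669h-3p was 5.72 on array 23, against 2.63 to 3.30, and miR-669n was 6.94, against 3.77 to 4.57.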

How the results depend on the processing

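With each array left out in turn, 0 members were called in every test, with a smallest limma adjusted p of 0.0728. Over these 19 settings and 15 others of scaling, background, floor, filter, probe rule and slide block, 0 members were called in any test. A member at the floor on all arrays could not be called, which held for 3 of the 9 in the main setting. The fits with an array left out kept those levels, and with a floor 4 times higher all 9 were at the floor. These counts of 0 are therefore no measure of how firmly a response is absent. Of the 4 settings added after the data were seen, 2 called members in the trend over dose. Spike-in scaling with a floor 4 times lower called 4 rising, where 17.3% of all tested miRNAs were called rising. No scaling with that floor called 1 falling, where 58.7% were called falling. Of 1005 recomputed uncalled changes, 108 had the other sign. The 1005 include changes of 0, from members held at the floor, which have no sign, so the share is not read as a rate of reversal. Where detection required at least 50% of the spots of any probe of a member to be well above background, arrays detected 3.2 members in controls, 1.6 in the low group, 0.25 in the middle group and 0.4 in the high group. No such count is given for the other miRNAs. The signal of the whole array was also lower in the middle and high groups, and its part in these counts was not tested. Values above the floor, 23 of 171 as reported, numbered 0 with a floor 4 times higher, 7 with the mean of probes and 90 with the total gene signal. They numbered 167 with a floor 4 times lower, also under spike-in scaling or scaling over all probes with that floor, and 171 without scaling. The signal over background limits all levels of these members. The deposited value table held 6 of the 9 tested members by exact name. No paired analysis was possible because the replicate numbers are not shared between groups.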
